A study of Mus musculus with 7 samples.

Results

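The genes described here are 10 genes of TGF-beta signalling and of the mesenchymal transition, taken by name from the 52740 identifiers of the deposited mouse RPE count table: the ligands Tgfb1 and Tgfb2, the receptors Tgfbr1 and Tgfbr2, the transcription factors Snai1, Snai2, Zeb1 and Zeb2, and the products Acta2 and Fn1. Each name matched 1 identifier, and all 10 were among the 16990 genes with enough counts to be tested. RNA sequencing compared retinal pigment epithelium (RPE), the pigmented cell layer behind the photoreceptors, from 4 WT mice (females F1, F2 and F3 and male M1) with that from 3 LC3b-/- mice (females F1 and F3 and male M), all aged 24 months; each mouse gave 1 library, and no treatment is named. The LC3b-/- mice were of the strain B6;129P2-Map1Lc3btm1Mrab/J, whose gene for the autophagy protein LC3b is disrupted, and the WT mice were C57BL6/J. Both strains were purchased and no littermate controls are named, so that the targeted gene and the strain background cannot be told apart. The sample labels spell the knockout genotype LCb-/-. RPE was released from opened eyes with hyaluronidase and trypsin and was not sorted, and poly-A RNA was sequenced on a stranded protocol.

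TGF-beta ligands are secreted in a latent form, held in the matrix by binding proteins, and act once they are released. The freed ligand binds the type II receptor, which recruits and phosphorylates the type I receptor, and Smad proteins carry the signal to the nucleus. In the RPE the pathway is known for driving a change from epithelial to mesenchymal character, in which Snail and Zeb factors repress junction genes and the cells make contractile actin and matrix proteins, as happens in scar membranes of the retina.

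The libraries held 24495952 to 34819720 counts in WT and 26704461 to 35616134 in LC3b-/-. Map1lc3b, the targeted gene, had 2778 to 4444 counts in the WT libraries and 168 to 332 in the LC3b-/- libraries. It lies on chromosome 8, which carries 0 of the 10 genes. RPE markers were abundant in every library, with a summed level of 31890 to 50330 CPM in WT and 14110 to 29950 in LC3b-/-. CPM are counts scaled to library size by the TMM method. Of the 12 markers, 11 were lower in LC3b-/-. An unadjusted edgeR p under 0.05 was found for 7 of these 11, beside 10.6% of all genes in the lower direction. Best1, an RPE chloride channel, was the exception in level, at 0.86 to 1.71 CPM. Markers of other cells of the eye were also present, as given beside the results below; none was at 0 in every library. In such bulk samples, fewer cells of a type and less RNA per cell cannot be told apart.

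Tgfb1, Tgfbr1 and Acta2 were the 3 members whose level in every LC3b-/- library exceeded that in every WT library; the fitted differences between the groups were 2.09-fold, 1.47-fold and 1.69-fold. None of the 10 genes passed the edgeR test after adjustment over all genes, while DESeq2 called Tgfb1 and Acta2. Tgfb2, Zeb1, Zeb2, Snai1, Snai2, Tgfbr2 and Fn1 had overlapping groups. The promoters of the first 3 are shown because their groups were apart. The RefSeq promoter table, whose windows span 250 bases before to 50 bases after a start site, held 7 of the 10 genes, and the window nearest the annotated start was read for each; Snai2, Zeb1 and Fn1 had no entry. Each sequence is read 5′ to 3′ on the gene's strand and was placed on GRCm39 by an exact match, at chr7:25386177-25386476 (plus strand) for Tgfb1, chr4:47352972-47353271 (plus strand) for Tgfbr1 and chr19:34232724-34233023 (minus strand) for Acta2. Capitals mark matches on either strand to the GC box (GGGCGG or CCGCCC), the Smad-type box (CAGAC or GTCTG), the E-box bound by Snail and Zeb proteins (CAGGTG or CACCTG) and the strict CArG box consensus.
Tgfb1: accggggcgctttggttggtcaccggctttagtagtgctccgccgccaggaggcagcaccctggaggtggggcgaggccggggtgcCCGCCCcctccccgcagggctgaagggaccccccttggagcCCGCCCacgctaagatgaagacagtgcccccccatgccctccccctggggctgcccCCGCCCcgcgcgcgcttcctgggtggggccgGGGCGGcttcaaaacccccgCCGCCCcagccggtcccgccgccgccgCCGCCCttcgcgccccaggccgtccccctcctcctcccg
Tgfbr1: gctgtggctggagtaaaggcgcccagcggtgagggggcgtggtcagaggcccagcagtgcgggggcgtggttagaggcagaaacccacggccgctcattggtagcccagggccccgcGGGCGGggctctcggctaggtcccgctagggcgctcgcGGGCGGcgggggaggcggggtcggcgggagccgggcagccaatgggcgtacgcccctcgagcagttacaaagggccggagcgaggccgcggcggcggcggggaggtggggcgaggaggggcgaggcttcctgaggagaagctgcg
Acta2: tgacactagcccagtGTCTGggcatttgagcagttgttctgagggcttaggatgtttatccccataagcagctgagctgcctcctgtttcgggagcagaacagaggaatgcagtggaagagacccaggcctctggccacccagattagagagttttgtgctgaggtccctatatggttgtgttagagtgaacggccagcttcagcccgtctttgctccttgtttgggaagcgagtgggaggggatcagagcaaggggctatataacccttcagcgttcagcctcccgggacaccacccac
The Tgfb1 promoter held 6 GC boxes at a GC content of 77.0%, and the Tgfbr1 promoter 2 GC boxes at 74.7%. The Acta2 promoter had a GC content of 54.7%, with 1 Smad-type box. It had no strict CArG match and 2 sites that are 1 letter off that consensus, not capitalised here; 21.1% of all promoters hold at least 1 such site. Among the windows of the remaining 4 genes, Tgfb2 held 2 Smad-type boxes, Tgfbr2 held 1, Snai1 held 1 E-box and Zeb2 held none in this window. No matches overlapped each other. Of 32851 mouse promoters of the same length, 35.7% held a GC box, 49.6% a Smad-type box, 20.2% an E-box and 1.63% a strict CArG box. A match describes the letters only.

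On GRCm39, Tgfb2 spans chr1:186354985-186438294, Fn1 chr1:71624673-71692419, Snai1 chr2:167380113-167384734, Zeb2 chr2:44873644-45007464, Tgfbr2 chr9:115913361-116004800 and Snai2 chr16:14523425-14527252; the genes whose promoters are shown are placed where they are described. Values per library are given below in the order F1, F2, F3, M1 for WT and F1, F3, M for LC3b-/-. Compared per kilobase of exonic sequence, Acta2 was the most abundant of the 10 transcripts in both genotypes. In WT it stood at 54.4 ± 15.4 CPM per kb (SD, n = 4) and in LC3b-/- at 92.2 ± 4.2 (SD, n = 3), and no library's value for another member reached its range. Acta2 encodes smooth muscle actin, which vessel walls also make. In WT, Tgfb2 (10.7 ± 3.66), Fn1 (6.88 ± 3.84), Tgfbr2 (6.8 ± 2.61), Snai1 (4.9 ± 2.69), Tgfbr1 (4.46 ± 0.65) and Tgfb1 (3.58 ± 1.65 CPM per kb, all SD, n = 4) followed, each with a range that overlapped that of the next. Zeb1 (1.89 ± 0.472) and Zeb2 (1.81 ± 0.477) also overlapped each other, and Snai2 was lowest at 0.654 ± 0.287 CPM per kb, below every WT value of Zeb2. In LC3b-/- the order after Acta2 was Fn1 (13.2 ± 3.3), Tgfbr2 (11.4 ± 2.23), Tgfb2 (9.16 ± 2.71), Tgfb1 (7.49 ± 1.1), Snai1 (7.45 ± 1.25) and Tgfbr1 (6.57 ± 0.628 CPM per kb, SD, n = 3), again with overlapping neighbours. Zeb1, at 2.3 ± 0.17, lay below Tgfbr1 and above Zeb2 (1.56 ± 0.502) without overlap, and Snai2 (1.17 ± 0.552 CPM per kb) overlapped Zeb2.

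Tgfb1, the ligand best known for driving fibrosis, was measured at 28.7, 21.2, 11.7 and 11.2 CPM in the WT libraries and at 40.6, 31.7 and 41.9 CPM in the LC3b-/- libraries. The WT libraries fell into a higher pair (F1 and F2) and a lower pair (F3 and M1), and the lowest LC3b-/- library lay above all of them. The means were 18.2 ± 8.39 CPM (SD, n = 4) and 38.1 ± 5.6 CPM (SD, n = 3), a log2 fold change of 1.06 (2.09-fold; SE 0.34). It did not pass the edgeR quasi-likelihood test over all genes (unadjusted p = 0.0159, adjusted p = 0.135), and it passed with DESeq2 (log2 fold change 1.05, adjusted p = 0.036). The exact permutation test over the 35 ways to assign the libraries to groups gave a two-sided p of 0.0571, where the smallest p the design allows is 0.0286. The gene (ENSMUSG00000002603) spans chr7:25386390-25404506 on GRCm39, plus strand.

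Tgfb2, the other ligand, which is abundant in the posterior eye, had 91.1, 57.5, 80.3 and 40.1 CPM in the WT libraries. In the LC3b-/- libraries it had 70.0, 63.8 and 38.1 CPM. The groups overlapped throughout, and in each genotype the male library was the lowest. Its log2 fold change was -0.23 (SE 0.32; edgeR adjusted p = 0.692). In WT, Tgfb2 was 3.0 times as abundant per kilobase as Tgfb1; in LC3b-/- their ranges overlapped.

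Tgfbr1, the type I receptor and kinase that phosphorylates Smads, had 35.8, 27.1, 28.8 and 26.4 CPM in the WT libraries and 47.0, 38.9 and 44.6 CPM in the LC3b-/- libraries. WT F1 was the highest WT library, and all 3 LC3b-/- libraries lay above it. The difference on the log2 scale was 0.56 (1.47-fold; SE 0.14), the smallest standard error of the 10 members, with an edgeR unadjusted p of 0.00495 and an adjusted p of 0.099. DESeq2 gave 0.54 with an adjusted p of 0.0202, which is past the p threshold and short of the 1.5-fold threshold that a call also needs. The paper, which also used DESeq2 with a 1.5-fold threshold, names Tgfbr1 among its differentially expressed genes. The exact permutation p was 0.0571. The gene (ENSMUSG00000007613) spans chr4:47353134-47414931 on the plus strand.

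Tgfbr2, the type II receptor that binds the ligand first, had 89.3, 65.7, 37.4 and 46.6 CPM in the WT libraries. In the LC3b-/- libraries it had 102, 79.3 and 118 CPM. Only WT F1 reached into the LC3b-/- range, above F3. On the log2 scale LC3b-/- was higher by 0.74 (1.67-fold; SE 0.30; edgeR unadjusted p = 0.0405, adjusted p = 0.191), and the exact permutation p was 0.114.

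**Figure D1:**
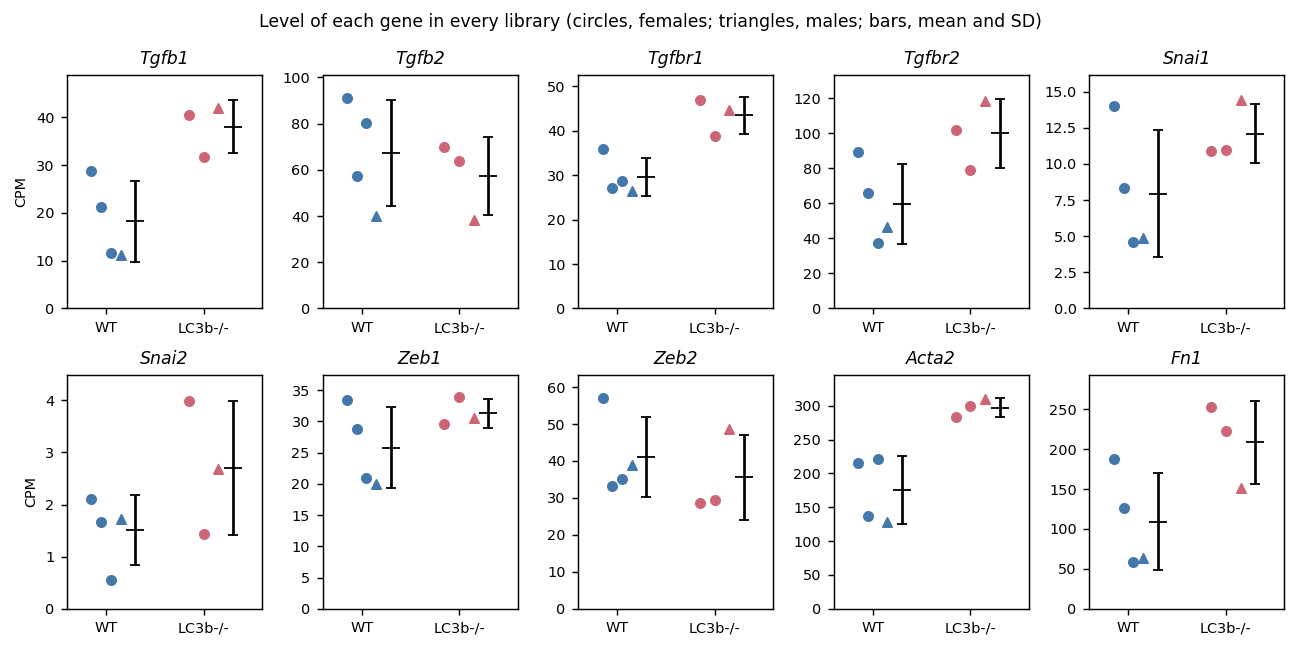
Level of each of the 10 genes in CPM (linear axes that start at 0) in every WT (blue) and LC3b-/- (red) library; circles are females, triangles are males, and black bars give the mean and SD of 4 WT and 3 LC3b-/- libraries. The groups do not overlap for Tgfb1, Tgfbr1 and Acta2, and WT F1, the leftmost blue point, is the highest WT library for 9 of the 10 genes.

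The 4 transcription factors of the transition showed smaller or less even differences, and none had an unadjusted edgeR p under 0.05. Snai1, a zinc-finger repressor of E-cadherin, had 13.99, 8.33, 4.61 and 4.88 CPM in the WT libraries and 10.9, 10.9 and 14.4 CPM in the LC3b-/- libraries. WT F1 lay within the LC3b-/- range, and the other 3 WT libraries lay below all of them. The genotypes differed by 0.60 on the log2 scale (SE 0.40; edgeR adjusted p = 0.385).

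Snai2, its close relative, was the least abundant member, with 2.11, 1.66, 0.56 and 1.73 CPM in the WT libraries and 3.99, 1.43 and 2.69 CPM in the LC3b-/- libraries. LC3b-/- F3 lay below 3 of the WT libraries. Its log2 fold change was 0.83 with the widest standard error of the 10 (0.52; edgeR adjusted p = 0.361).

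Zeb1, a repressor that binds E-boxes, had 33.4, 28.8, 21.01 and 19.99 CPM in the WT libraries and 29.6, 34.0 and 30.5 CPM in the LC3b-/- libraries. Again WT F1 lay within the LC3b-/- range (log2 fold change 0.28, SE 0.20, edgeR adjusted p = 0.419). Zeb2, the related repressor, had 56.98, 33.4, 35.1 and 38.9 CPM in the WT libraries and 28.6, 29.4 and 48.7 CPM in the LC3b-/- libraries. Both LC3b-/- females lay below every WT library, and the LC3b-/- male lay above all but WT F1. The log2 fold change of Zeb2 was -0.21 (SE 0.26; edgeR adjusted p = 0.658), and it ranged from -0.63 with a replicate block to -0.01 without WT F1. Zeb1 and Zeb2 share 198 and 266 identical bases with the antisense genes Zeb1os1 and Zeb2os; the library protocol was stranded, whereas the options of the counting step are not given in the sources used here.

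Acta2, smooth muscle actin, the contractile product by which myofibroblasts are recognised, had 215, 137, 222 and 129 CPM in the WT libraries. In the LC3b-/- libraries it had 283, 300.2 and 309 CPM. The 3 LC3b-/- libraries lay close together and above every WT library, while the WT libraries formed a higher (F1 and F3) and a lower pair (F2 and M1) that cut across the pairs seen for Tgfb1. The means were 176 ± 49.7 CPM (SD, n = 4) and 298 ± 13.6 CPM (SD, n = 3), so that the coefficient of variation was 28.3% in WT and 4.55% in LC3b-/-. The log2 fold change was 0.76 (1.69-fold; SE 0.22; edgeR unadjusted p = 0.0106, adjusted p = 0.119), and DESeq2 called it at 0.75 (adjusted p = 0.0209). The exact permutation p was 0.0571. Summed with the other muscle actins Acta1, Actc1 and Actg2, whose coding sequences are alike, the log2 fold change stayed at 0.76. It was 0.42 with a replicate block. The gene (ENSMUSG00000035783) spans chr19:34217737-34232990 on the minus strand and shares 301 bases with the neighbouring gene Stambpl1.

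Fn1, fibronectin, a matrix glycoprotein that TGF-beta induces, had 188, 126, 58.6 and 63.4 CPM in the WT libraries and 252, 222 and 151 CPM in the LC3b-/- libraries. WT F1 lay above LC3b-/- M, and the other 3 WT libraries lay below every LC3b-/- library. Fn1 had a log2 fold change of 0.94 (1.91-fold; SE 0.43; edgeR unadjusted p = 0.061, adjusted p = 0.227; exact permutation p = 0.114). It was 1.34 without WT F1 and 0.59 without both WT M1 and LC3b-/- F1.

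Across the 10 genes, 8 were higher and 2 lower in LC3b-/-, and 0 were called by edgeR, where 40 of all 16990 genes (0.235%) were called. An unadjusted p under 0.05 was found for 4 members, all higher (Tgfb1, Tgfbr1, Tgfbr2 and Acta2), where 13.5% of all genes had such a p in the higher and 10.6% in the lower direction. Groups without overlap were found for 3 members, all higher, where 12.0% of all genes had every LC3b-/- library above every WT library and 10.3% had every one below. DESeq2 called 2 members higher (Tgfb1 and Acta2), where it called 6.49% of all genes higher. The median log2 fold change of the members was 0.67, beside 0.01 over all genes tested, of which 51.2% lay above 0.

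Most members were highest in the same WT library, though the order of the other WT libraries differed between them. WT F1 was the highest WT library for 9 of the 10 genes, with Acta2 as the exception, and WT F3 or M1 was the lowest for 9. Each LC3b-/- library lay above the WT mean for 7 to 9 members, and the coefficient of variation was larger in WT than in LC3b-/- for 8. The shares of all genes with these patterns were not counted, so they cannot be read as particular to the members. The summed level of the 10 genes was 754, 507, 500.2 and 382 CPM in the WT libraries and 868, 812 and 799.6 CPM in the LC3b-/- libraries, with no overlap. Acta2 was the largest part of every sum. Summed apart, the ligands, the receptors and the transcription factors each overlapped between the groups. Only the sum of Acta2 and Fn1 did not, at 192 to 402 CPM in WT and 460 to 535 CPM in LC3b-/-. Without WT F1 the median log2 fold change was 0.94, and 7 members, all higher, had an unadjusted edgeR p under 0.05, as did 18.0% of all genes in the higher direction in that fit. Between the males alone, 9 of the 10 genes were higher in the LC3b-/- library than in the WT library. With 1 library a group this carries no test, and the share over all genes was not counted. Tgfb1 differed 3.74-fold between the males and Tgfbr1 1.69-fold. In the females alone the log2 fold changes of these 2 genes were 0.81 and 0.49, and 1 member (Tgfbr1) had an unadjusted edgeR p under 0.05, beside 11.2% of all genes in the higher direction. The term for a different genotype effect in males and females had an adjusted p of at least 0.998 for the members (edgeR), with the male spread assumed to be that of the females.

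**Figure D2:**
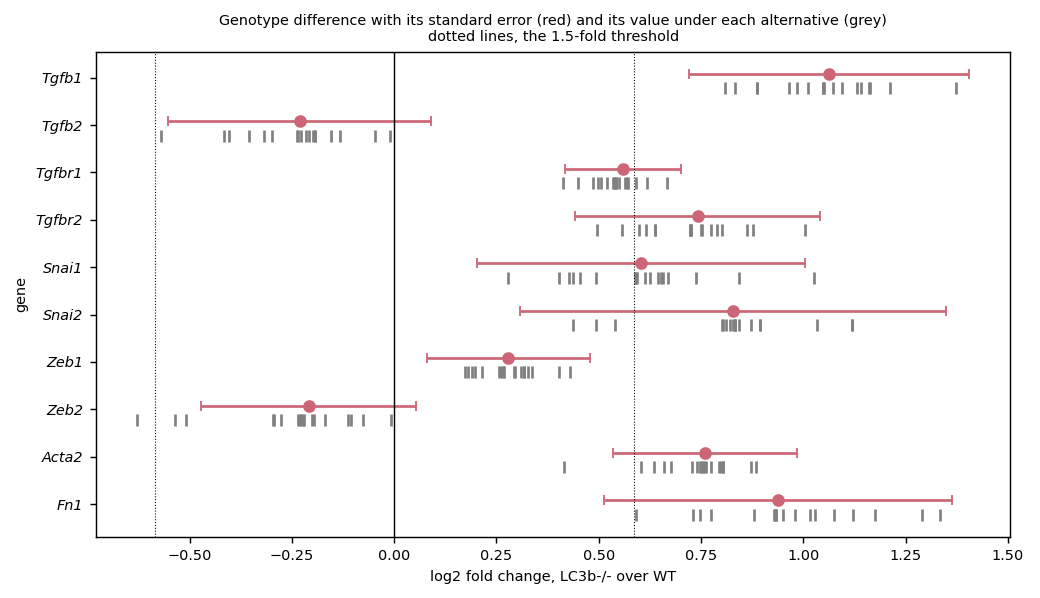
Log2 fold change of LC3b-/- over WT for each of the 10 genes from edgeR (red points, with bars of 1 standard error) and under each alternative processing (grey marks); dotted lines mark the 1.5-fold threshold. No grey mark lies on the other side of 0 from its red point, and those of Tgfb2 and Zeb2 come closest to 0.

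A list drawn up around the latency and activation of TGF-beta gave 16 higher and 4 lower of 20 tested (median log2 fold change 0.41). Not all of its genes hold or release the latent form, as it also includes the ligand Tgfb3 and Dcn, Bgn and Htra1. Tgfb3 had overlapping groups (log2 fold change 0.55, edgeR adjusted p = 0.47). An unadjusted edgeR p under 0.05 was found for 4, all higher, beside 13.5% of all genes in the higher direction. Htra1, a secreted serine protease, had 62.7 to 75.5 CPM in WT and 113 to 150.1 CPM in LC3b-/- (a log2 difference of 0.94, SE 0.13, edgeR adjusted p = 0.053). DESeq2 called Htra1 (log2 fold change 0.92, adjusted p = 4.25e-06), and the paper also names it as differentially expressed. The log2 fold change was 0.93 for Ltbp4, a latent TGF-beta binding protein, and 0.80 for Itgb1, an integrin subunit, both without overlap between the groups and with edgeR adjusted p of 0.193 and 0.096. Thbs1, thrombospondin, an activator of the latent ligand, had 406 to 657 CPM in WT and 711 to 1333 CPM in LC3b-/- (edgeR adjusted p = 0.144). Itgb8, an integrin subunit that also releases the ligand, had 1023 to 1900 CPM in WT and 474 to 1371 CPM in LC3b-/-, with overlapping groups (a log2 difference of -0.74, edgeR adjusted p = 0.289).

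The other receptors of the family gave 7 higher and 4 lower of 11 tested (median 0.27). Beside 13.5% of all genes in the higher direction, 2 receptors had an unadjusted edgeR p under 0.05. These were Bambi, a decoy receptor (0.67, edgeR adjusted p = 0.112), and Acvr1b, an activin receptor (0.49, edgeR adjusted p = 0.0982). The co-receptors Tgfbr3 (log2 fold change -0.29) and Eng (0.85), the latter an endothelial gene, had overlapping groups. Among Smads and their partners, 17 were higher and 2 lower of 19 tested (median 0.35), and 10 had an unadjusted edgeR p under 0.05, all higher. The largest were 3 genes known to restrain the pathway, Tgif1 (0.95, edgeR adjusted p = 0.108), Pmepa1 (0.88, 0.096) and Smurf1 (0.78, 0.0989). The corepressors Skil and Ski had log2 fold changes of 0.73 and 0.53, without and with overlap.

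Genes known to respond to TGF-beta gave 19 higher and 1 lower of 20 tested, with a median log2 fold change of 0.90. An unadjusted edgeR p under 0.05 was found for 8 of them, beside 13.5% of all genes in the higher direction. Cdkn2b, an inhibitor of the cell cycle, had 0.487 to 1.73 CPM in WT and 3.96 to 25.2 CPM in LC3b-/- (log2 fold change 3.56, SE 0.71, edgeR adjusted p = 0.0898). In LC3b-/- it was highest in F1, lower in F3 and lowest in M, as were the surface epithelium sums given below. The WT orders of the 2 differed, and Tnc and Timp1 were not highest in LC3b-/- F1. A part of surface epithelium in these levels was not tested. Tnc, the matrix protein tenascin, differed by 2.01 (edgeR adjusted p = 0.0967) and Timp1, an inhibitor of matrix proteases, by 1.91 (0.116), both without overlap. The targets with the highest CPM, not corrected for length, Junb, an immediate-early factor, and Ccn2, connective tissue growth factor, had overlapping groups (0.66 and 0.58). The other transition factors gave 7 higher and 1 lower of 8 tested (median 0.52), and 0 had an unadjusted edgeR p under 0.05; the highest in CPM, not corrected for length, were Sox9 (-0.40) and Tcf4 (0.46).

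Mesenchymal products gave 22 higher and 2 lower of 24 tested (median 0.70). At an unadjusted edgeR p under 0.05 were 6 higher and 1 lower, beside 13.5% and 10.6% of all genes. The lists share genes, so their counts are not separate. Tnc, Col1a1, Col1a2, Postn and Lox also stand among the genes that respond to TGF-beta, and Itgb1 among those of latency. Smad7, Skil and Pmepa1 are in both the Smad list and the response list. Cd44, a hyaluronan receptor, had 11.8 to 22.6 CPM in WT and 37.5 to 79.8 CPM in LC3b-/- (a log2 difference of 1.75, edgeR adjusted p = 0.0889). Like Cdkn2b, it was highest in F1 and lowest in M among the LC3b-/- libraries. Vim, the intermediate filament vimentin, differed by 0.84 (edgeR adjusted p = 0.182) and Sparc, a matrix protein, by 0.29 (0.52), both with overlap. The contractile genes of this list also had overlapping groups, unlike Acta2. Their log2 fold changes were -0.17 for Tagln, 0.22 for Myl9, 0.59 for Cnn1, 0.58 for Tpm1 and 0.85 for Tpm2. Epithelial products, which the transition is known to lower, gave 21 higher and 3 lower of 24 tested, with the largest median of these 7 pathway lists (2.26), and 16 higher and 2 lower at an unadjusted edgeR p under 0.05. Cdh1, E-cadherin, had 14.1, 8.95, 0.15 and 23.1 CPM in the WT libraries and 225, 94.5 and 26.5 CPM in the LC3b-/- libraries (log2 fold change 3.32, SE 1.18, edgeR adjusted p = 0.157). Ovol1, a factor of surface epithelia (3.99), Rab25, an epithelial GTPase (3.39), and Dsp, desmoplakin (2.67), were likewise higher without overlap, and markers of surface epithelium, given below, were higher in the same libraries, whereas Krt18, a keratin of simple epithelia such as the RPE, was lower without overlap (-0.71, edgeR adjusted p = 0.16).

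**Figure D3:**
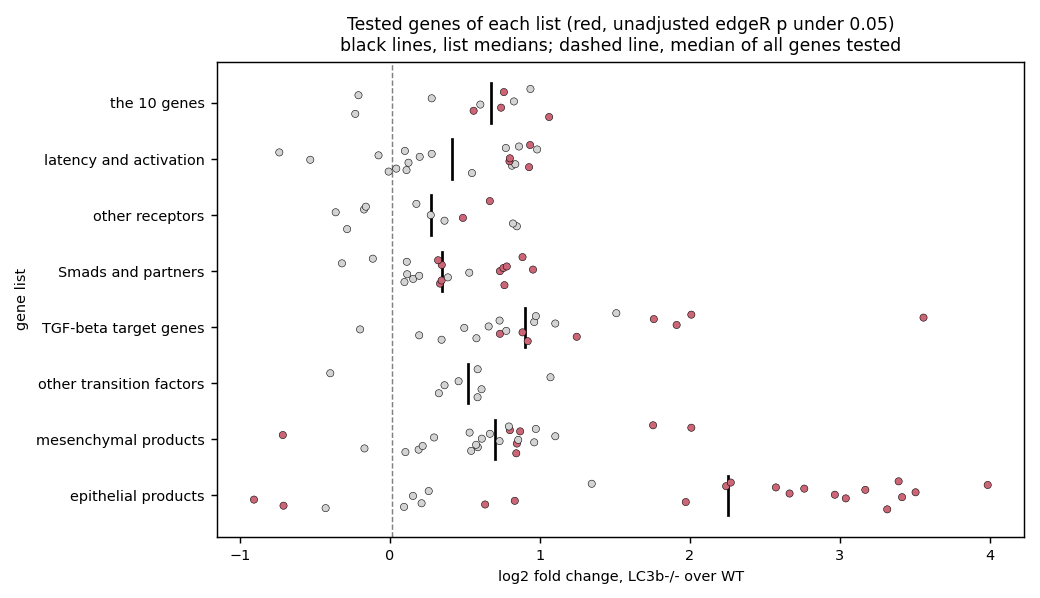
Log2 fold change of LC3b-/- over WT for each tested gene (points) of the 10 described genes and of 7 lists of related genes; black lines are list medians, the dashed line is the median of all genes tested (0.01), and red points have an unadjusted edgeR p under 0.05. Most points lie to the right of the dashed line in every list, and the epithelial products reach furthest, to 3.99.

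In all, counting each gene once, 100 of the 117 tested genes of these lists were higher and 17 lower. Their median log2 fold change was 0.59. The edgeR test called 0, beside 0.235% of all genes. At an unadjusted edgeR p under 0.05 were 42 higher and 3 lower, beside 13.5% and 10.6% of all genes. DESeq2 called 23 higher and 1 lower, beside 6.49% and 2.92% of all genes. Without WT F1 edgeR called 8 of these genes and 1.28% of all genes, and without LC3b-/- M it called 9 of them and 2.76% of all genes. The gene whose log2 CPM followed each member most closely over the 7 libraries was looked up among these 117. It was Eng for Tgfb1 (Pearson r = 0.981), Ltbp1 for Tgfb2 (0.955), Itgb1 for Tgfbr1 (0.981) and Col1a1 for Tgfbr2 (0.982). For the transcription factors it was Foxc2 for Snai1 (0.981), Tgfbi for Snai2 (0.944), Acvrl1 for Zeb1 (0.966) and Id2 for Zeb2 (0.827). For the products it was Bambi for Acta2 (0.871) and Vim for Fn1 (0.957). These are descriptions over libraries that fall into 2 genotype groups, and each is the highest of 117 values.

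Endothelial, fibroblast and surface epithelium markers were mostly higher in LC3b-/-, as were the members, while the other marker lists were mixed or lower. Endothelial markers were higher in LC3b-/- for 10 of 10 genes. Beside 13.5% of all genes in the higher direction, 3 of these markers had an unadjusted edgeR p under 0.05. Their summed level was 1292, 1149, 496 and 397 CPM in the WT libraries and 1660, 1709 and 1447 CPM in the LC3b-/- libraries. These sums split the WT libraries into the same higher and lower pairs as Tgfb1. Fibroblast markers were higher for 9 of 10 genes (0 with an unadjusted edgeR p under 0.05), with sums of 831 to 1943 CPM in WT and 1402 to 2221 CPM in LC3b-/-, highest in WT F1 among the WT libraries, as for 9 of the members. Some fibroblast markers, such as Col1a1, also stand in the pathway lists above. Smooth muscle and pericyte markers, which bear on Acta2, were higher for 6 and lower for 4 of 10 genes, with overlapping sums of 198 to 590.3 CPM in WT and 335 to 518 CPM in LC3b-/-. Among them Myh11, smooth muscle myosin, had 111, 26.1, 65.2 and 17.0 CPM in the WT libraries and 50.1, 60.3 and 37.4 CPM in the LC3b-/- libraries. In WT it was high in F1 and F3 and low in F2 and M1, as was Acta2, while the 2 groups overlapped. Rgs5, a pericyte gene, was the largest part of the WT F1 and F2 sums, at 215 and 170 CPM, and was lower in F3 and M1, at 66.0 and 25.2 CPM.

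Surface epithelium markers, the keratins and partners of cornea and conjunctiva, were higher for 12 of 12 genes (median log2 fold change 4.72). Beside 13.5% of all genes in the higher direction, 9 of these markers had an unadjusted edgeR p under 0.05. Their sums were 887, 631, 10.2 and 2490.0 CPM in the WT libraries and 25640.0, 7055 and 3510.0 CPM in the LC3b-/- libraries. The order of the 7 libraries in these sums is that of Cdh1. Macrophage and microglia markers were higher for 5 and lower for 7 of 12 genes, with sums of 592 to 778 CPM in WT and 612 to 1372 CPM in LC3b-/-. Photoreceptor markers were lower for 10 of 10 genes, with overlapping sums of 36.9 to 20090.0 CPM in WT and 49.6 to 6976 CPM in LC3b-/-. Müller glia markers (3 higher and 5 lower of 8; 4446 to 5302 CPM in WT and 3678 to 4091 CPM in LC3b-/-) and melanocyte and neural crest markers (3 higher and 5 lower of 8; 1494 to 2983 CPM and 1213 to 1439 CPM) had lower sums in every LC3b-/- library, but both lists hold a gene that pigmented or RPE cells also express. Without Rdh10, a retinol dehydrogenase, the Müller glia sums overlapped (2616 to 3220.0 CPM in WT and 2228 to 3303 CPM in LC3b-/-), and without Dct, a melanin enzyme, so did the melanocyte sums (267 to 1010.0 CPM and 219 to 287 CPM). The part of these cells in the levels of the 10 genes was not tested. Without both WT M1 and LC3b-/- F1, the libraries with the most Krt12, a corneal keratin, the log2 fold change was 0.83 for Tgfb1, 0.45 for Tgfbr1 and 0.68 for Acta2, and 2 members (Tgfbr1 and Acta2) had an unadjusted edgeR p under 0.05, beside 6.63% of all genes in the higher direction. The surface epithelium sums of the libraries that remained were still apart, at 887, 631 and 10.2 CPM in WT and 7055 and 3510.0 CPM in LC3b-/-. This fit therefore does not remove the difference in these markers.

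**Figure D4:**
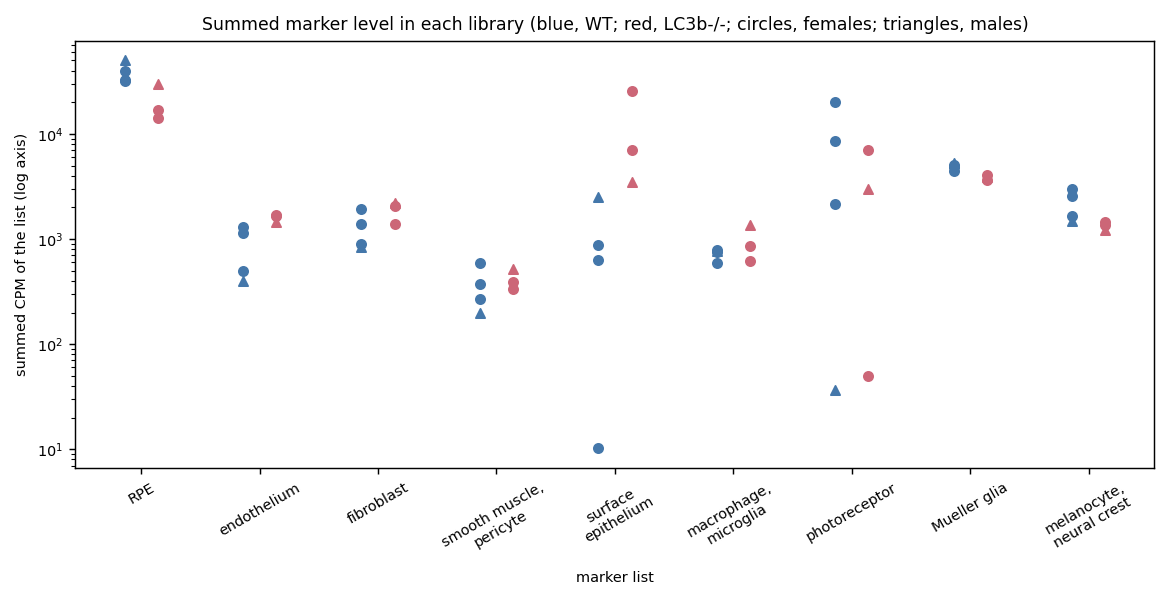
Summed level of each cell type marker list in CPM (log axis) in every WT (blue) and LC3b-/- (red) library; circles are females and triangles are males. RPE sums are lower and endothelial and surface epithelial sums higher in every LC3b-/- library than in any WT library, while fibroblast, smooth muscle and pericyte, macrophage and photoreceptor sums overlap.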

How the data were processed

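RPE from 7 mice was sequenced as 1 library each (100 bp single reads, NEB Ultra II stranded mRNA kit, 15 ng of RNA). The authors quantified reads with salmon 1.9.0 against GENCODE vM26 (GRCm39) and summarised them to genes with tximeta 1.16.1. The deposited values are the authors' counts per gene in whole numbers, without scaling to depth, and each of the 7 columns entered the fits (0 left unused). Read trimming, salmon's options and the way of rounding are not given in the sources used here. Numbers in the sample titles were not interpreted. The number before the sex code is the same in every WT title and occurs in no LC3b-/- title. Whatever it stands for cannot be told apart from genotype.

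Groups came from the genotype label. Of 52740 identifiers, 51721 matched GENCODE vM39, which gave symbols and GRCm39 coordinates. Genotypes were compared by the quasi-likelihood test of edgeR 4.0.16 under R 4.3.3, with filterByExpr, TMM scaling and no covariate, and p-values were adjusted by Benjamini-Hochberg over 16990 genes. A gene was called at 1.5-fold or more with an adjusted p under 0.05. DESeq2 1.42.0, limma 3.58.1 (voom), other scalings and filters, sex as a covariate, females only, a replicate block and each library left out were alternatives. Log2 CPM used a prior count of 2. Exact permutation tests were two-sided over 35 assignments of libraries. The edgeR code was tested on simulated counts. The members and lists, which come from general knowledge of the pathway, were chosen with earlier results of these data known. Beyond the 10 members, the text names in each list the called genes, the 3 largest changes among genes with an unadjusted p under 0.05 and groups that do not overlap, and the 2 genes with the highest mean CPM, and for each member the most alike gene. A few marker genes (Best1, Krt12, Myh11, Rgs5, Rdh10, Dct) and the looser CArG search were chosen after the values were seen. So were Tgfb3 and the contractile genes Tagln, Myl9, Cnn1, Tpm1 and Tpm2. Other genes are named only as entries of a list. Promoters came from the RefSeq table of GRCm38.p6, and shared sequence was sought by BLAST 2.17.0 (matches of 100 bases or more at 95% identity that cover 10% of a transcript). Antisense and overlapping genes found so are named beside the gene. Replicates are separate mice; totals of 24495952 to 35616134 counts limit precision less than the spread between mice (biological coefficient of variation 0.398).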

Additional observations from a re-analysis of the deposited data

Results flagged for a closer look

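Of the 10 members and the pathway genes named beside them, 39 in all, 1 had a WT library far from the other 3. Smurf1, a ubiquitin ligase that removes Smads and receptors, had 30.9 CPM in WT F1 and 21.1 to 22.3 CPM in WT F2, F3 and M1. Chance puts about 1 in 20 such groups of 4 past this limit. Its 3 LC3b-/- values, 31.8 to 49.2 CPM, lay above WT F1. No member was set apart in this way. The edgeR test across all genes for a different genotype effect in males and females gave the 10 members an adjusted p of at least 0.998, and 0 of them an unadjusted p under 0.05.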

How the results depend on the processing

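All 181 values of the members' log2 fold changes under an alternative kept their direction, and 2 became calls, Tgfb1 and Acta2 with DESeq2. The count of members called was therefore 2 with DESeq2 and 0 with edgeR, also with each library left out. Members with an unadjusted p under 0.05, all higher, numbered 4 in the reported fit, beside 13.5% of all genes in the higher direction. With DESeq2 they numbered 5 (beside 13.7% of all genes), with voom 6 (16.8%) and with no filter 5 (9.41%). They numbered 1 in females only (11.2%) and 1 with the replicate block (9.48%). Without both WT M1 and LC3b-/- F1 (chosen after seeing the data) they numbered 2 (6.63%). With each library left out they numbered 3 to 7 (8.09% to 18.0%), with the 7 found without WT F1. Of the related lists, 0 genes were called in the reported fit, 24 with DESeq2 (which called 9.41% of all genes), 1 each with voom, DESeq2 size factors, library size alone, no filter and at least 10 counts in every library, 3 with sex as a covariate, and 0 to 9 with each library left out (8 without WT F1, 9 without LC3b-/- M). The cause was not tested. The median log2 fold change of the members ranged from 0.43 with the replicate block to 0.94 without WT F1. The block joins F1 with F1 and F3 with F3, which share only a number: the deviations of same-numbered libraries correlated at 0.146 and 0.243, and the labels name nothing shared. Groups of 4 and 3 cannot give an exact p under 0.0286.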
